A study of Homo sapiens with 6 samples.

Results

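The axon guidance ligands and receptors were examined in A375 cells, an established human melanoma line, after sorting on aldehyde dehydrogenase (ALDH) activity. Members were all protein-coding genes of the deposited table with a semaphorin, plexin, ephrin, Eph, netrin, UNC5, slit or roundabout (ROBO) symbol, together with the neuropilins NRP1 and NRP2. This rule gave 68 of 57914 genes, among 19779 that were protein-coding. They comprised 35 ligands and 33 receptors. Live cells had been stained with Aldefluor, a substrate that ALDH enzymes turn into a fluorescent product held in the cell. The ALDH_High group held cells from the top 5% of the signal and the ALDH_Low group cells from the bottom 5%, with 3 RNA-seq libraries in each. All 6 libraries came from the same line grown in high-glucose DMEM with serum and L-glutamine, with no other treatment and no gene altered according to the labels. The labels do not say whether the libraries of a group came from separate cultures or sorts, so the p-values measure the spread between these libraries, which may be technical. The middle of the Aldefluor distribution was not sampled, and in bulk libraries fewer cells of a type and less RNA per cell cannot be told apart.

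Axon guidance molecules were named for steering growing nerve fibres, and many also guide neural crest cells, the embryonic cells from which melanocytes arise. Semaphorins signal through plexins, and most secreted class 3 semaphorins need a neuropilin to hold the plexin complex together. Ephrins are bound to the cell surface and activate Eph receptor tyrosine kinases on the neighbouring cell, while they can also signal backwards into the cell that carries them. Netrins attract through DCC and neogenin and repel through UNC5 receptors, and slits repel through ROBO receptors.

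The total counts per library lay between 26692868 and 37830603, and the members held between 0.190% and 0.226% of them. ALDH1A3, the dehydrogenase gene that the series title names, differed in the direction of the labels (log2 fold change 1.32). Libraries 1, 2 and 3 had 279, 519 and 504 TPM of it in ALDH_High and 149.5, 182 and 165 TPM in ALDH_Low. The second principal component of all genes, with 14.5% of the variance, separated ALDH_High library 1 from ALDH_High libraries 2 and 3. ALDH_High library 1 also had the lowest ALDH1A3 value of its group. Of 10 melanoma and melanocyte lineage markers, 6 could be tested; 4 were higher and 1 was lower in ALDH_High, and their summed level was 617 to 706 TPM in ALDH_High and 198 to 210 TPM in ALDH_Low. SOX10, PRAME, S100A1 and S100B were the higher ones and MITF the lower; SOX10, a transcription factor of this lineage, stood at 366 to 447 TPM in ALDH_High and 102 to 116 TPM in ALDH_Low, and MITF, another, at 5.67 to 6.95 and 8.41 to 14.9 TPM. The pigment genes MLANA and TYR had at most 3 counts in every library. Of 8 neuronal markers 4 could be tested and none was called, with sums of 374 to 482 TPM in ALDH_High and 446 to 503 TPM in ALDH_Low; TUBB3 made up most of this and NEFM had at most 3 counts. Endothelial markers summed to 3.12 to 3.18 TPM in ALDH_High and 0.736 to 0.950 TPM in ALDH_Low. Of 6 genes 4 could be tested and 1, KDR, was higher, while CLDN5 was at 0. KDR made up most of the ALDH_High sum, with 2.82, 2.52 and 2.38 TPM in ALDH_High and 0.203, 0.105 and 0.293 TPM in ALDH_Low. The other tested endothelial markers, PECAM1 (-0.77), TEK (-0.57) and VWF (-0.19), were not called. White blood cell markers (5 genes, 2 tested, LYZ higher and CD14 lower) summed to 3.49 to 7.90 TPM in ALDH_High and 1.94 to 2.75 TPM in ALDH_Low, with CD3E and MS4A1 at 3 counts or fewer in every library. Epithelial markers (5 genes, 2 tested, KRT5 lower) summed to 17.2 to 23.3 against 12.2 to 16.7 TPM, and fibroblast markers (5 genes, 4 tested, none called) to 9.39 to 12.2 against 6.16 to 7.19 TPM. Where these sums differ between the groups, their part in the member results was not tested.

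Promoter sequences of 4 members are shown because these genes represent an Eph receptor and its ligand that were both lower in ALDH_High (EPHA2 and EFNA1), the Eph receptor with the greatest increase (EPHB3) and the class 3 semaphorin with the greatest decrease (SEMA3F). Each runs 5′ to 3′ from 250 bases before to 50 bases after the gene's start on GRCh38.p14, from RefSeq, where 58 of the 68 members were matched. Capitals mark matches, on either strand, to 5 motifs: CACGTG (the E-box bound by MITF), GCCNNNGGC (AP-2), TGANTCA (AP-1), ACAAAG (SOX) and GGAATG (TEAD). The EPHA2 promoter (chr1:16156020-16156319, minus strand) held 1 TEAD match.
EPHA2: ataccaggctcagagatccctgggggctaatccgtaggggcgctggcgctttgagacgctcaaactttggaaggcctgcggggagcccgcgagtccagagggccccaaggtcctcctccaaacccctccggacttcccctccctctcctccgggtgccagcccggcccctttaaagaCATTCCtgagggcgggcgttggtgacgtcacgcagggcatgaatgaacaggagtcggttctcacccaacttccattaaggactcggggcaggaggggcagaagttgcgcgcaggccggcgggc
The EFNA1 promoter (chr1:155127626-155127925, plus strand) held 1 SOX match.
EFNA1: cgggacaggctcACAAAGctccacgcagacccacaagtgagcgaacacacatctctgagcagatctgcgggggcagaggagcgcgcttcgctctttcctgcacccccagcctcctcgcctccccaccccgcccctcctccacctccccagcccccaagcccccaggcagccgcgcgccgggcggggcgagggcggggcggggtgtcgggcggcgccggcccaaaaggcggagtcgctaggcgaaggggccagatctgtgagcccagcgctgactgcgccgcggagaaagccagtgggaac
The EPHB3 promoter (chr3:184561535-184561834, plus strand) held no match in this window.
EPHB3: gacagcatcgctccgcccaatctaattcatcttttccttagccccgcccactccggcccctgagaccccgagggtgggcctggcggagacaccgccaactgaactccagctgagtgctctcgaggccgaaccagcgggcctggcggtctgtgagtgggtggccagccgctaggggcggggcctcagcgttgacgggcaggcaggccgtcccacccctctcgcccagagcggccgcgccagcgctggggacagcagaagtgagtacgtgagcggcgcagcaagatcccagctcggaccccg
The SEMA3F promoter (chr3:50154808-50155107, plus strand) held 1 AP-2 match.
SEMA3F: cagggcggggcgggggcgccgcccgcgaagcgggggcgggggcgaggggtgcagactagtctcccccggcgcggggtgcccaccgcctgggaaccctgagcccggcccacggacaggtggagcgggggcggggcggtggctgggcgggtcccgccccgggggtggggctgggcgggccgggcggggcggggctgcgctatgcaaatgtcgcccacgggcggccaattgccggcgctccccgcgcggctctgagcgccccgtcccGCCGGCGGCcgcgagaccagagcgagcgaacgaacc
These motifs occurred in 7.4% (E-box), 23.0% (AP-2), 7.8% (AP-1), 15.997% (SOX) and 14.0% (TEAD) of all 27305 promoters of this length in the table. A match is a description of the letters and not evidence of binding.

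The members differed between the groups in both directions, and several families were split between higher and lower genes. NTN1, EPHB3, EPHA3 and EFNB3 were among the higher genes in ALDH_High, and SEMA3F, NTN4, EFNA1 and EPHA2 among the lower. Of the 68 members, 58 passed the filter on low counts and were tested in a fit across all genes. Among these 58, 32 (55.2%) passed the threshold of an adjusted p below 0.05 (edgeR quasi-likelihood test, Benjamini-Hochberg over 17047 genes), against 20.6% of all genes tested and 22.2% of the 13789 protein-coding genes tested. The 16 members higher in ALDH_High stand beside 10.8% of all genes, and the 16 lower beside 9.83%; each makes up 27.6% of the tested members. SEMA4A and UNC5C are among the 32 but passed the low-count filter only through the group where they are high, so their calls support nothing in this count. Median expression over the 6 libraries was 14.2 CPM (counts scaled to equal library sizes) for the tested members and 15.03 CPM for all genes tested. The median absolute log2 fold change was 0.69 over the tested members and 0.28 over all genes tested, while the signed medians were 0.10 and -0.013. The groups did not overlap in 35 of the 58 (60.3%), against 37.8% of all genes. An exact two-sided permutation test of 1 gene cannot give less than 0.1 with 3 libraries against 3, and every member whose groups did not overlap was at that value. EFNB1, EPHB4, PLXNB1, SEMA4F and SLIT2 had groups that did not overlap and yet missed the threshold, and SEMA3D and NRP1 passed it with overlapping groups. With limma on log2(TPM + 1) and no filter, 15 of the 32 kept their call; SEMA3B, SEMA3D, SEMA3G, SEMA4A, SEMA4B, SEMA7A, NRP1, PLXNA2, PLXNA3, PLXNA4, EPHA4, EPHB1, EPHB6, UNC5B, UNC5C, UNC5D and ROBO2 did not, at adjusted p from 0.0615 to 0.295, and none of them changed sign. The added 1 understates the change of low genes on that scale, where NTN1 was at 2.03, EFNB3 at 1.14 and SEMA5A at -0.63, all of which kept their calls. Among the lost calls, UNC5C shrank from 2.20 to 0.15, whereas NRP1 (-0.84 to -0.81) and SEMA7A (-0.58 to -0.53) changed little. Why calls were lost was not tested.

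Ligands and receptors were also counted apart. Of 30 ligands tested, 5 (16.7%) were higher and 9 (30.0%) lower in ALDH_High, and their median was -0.16 on the log2 scale. Of 28 receptors tested, 11 (39.3%) were higher and 7 (25.0%) lower, with a median of 0.20. Over all genes tested, 10.8% were higher and 9.83% lower. The 9 lower ligands include SEMA4A and the 11 higher receptors UNC5C, which passed the low-count filter only through the group where they are high. Their calls support nothing in these counts. The difference between ligands and receptors was not tested. In the authors' deposited table, the difference between the log2 coefficients of the high and low groups had the same sign as the fold changes here for 32 of the 32 called members and differed from them by at most 0.066. That table holds these same 6 libraries, so the match is a check of the processing and not independent support for the calls.

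**Figure D1:**
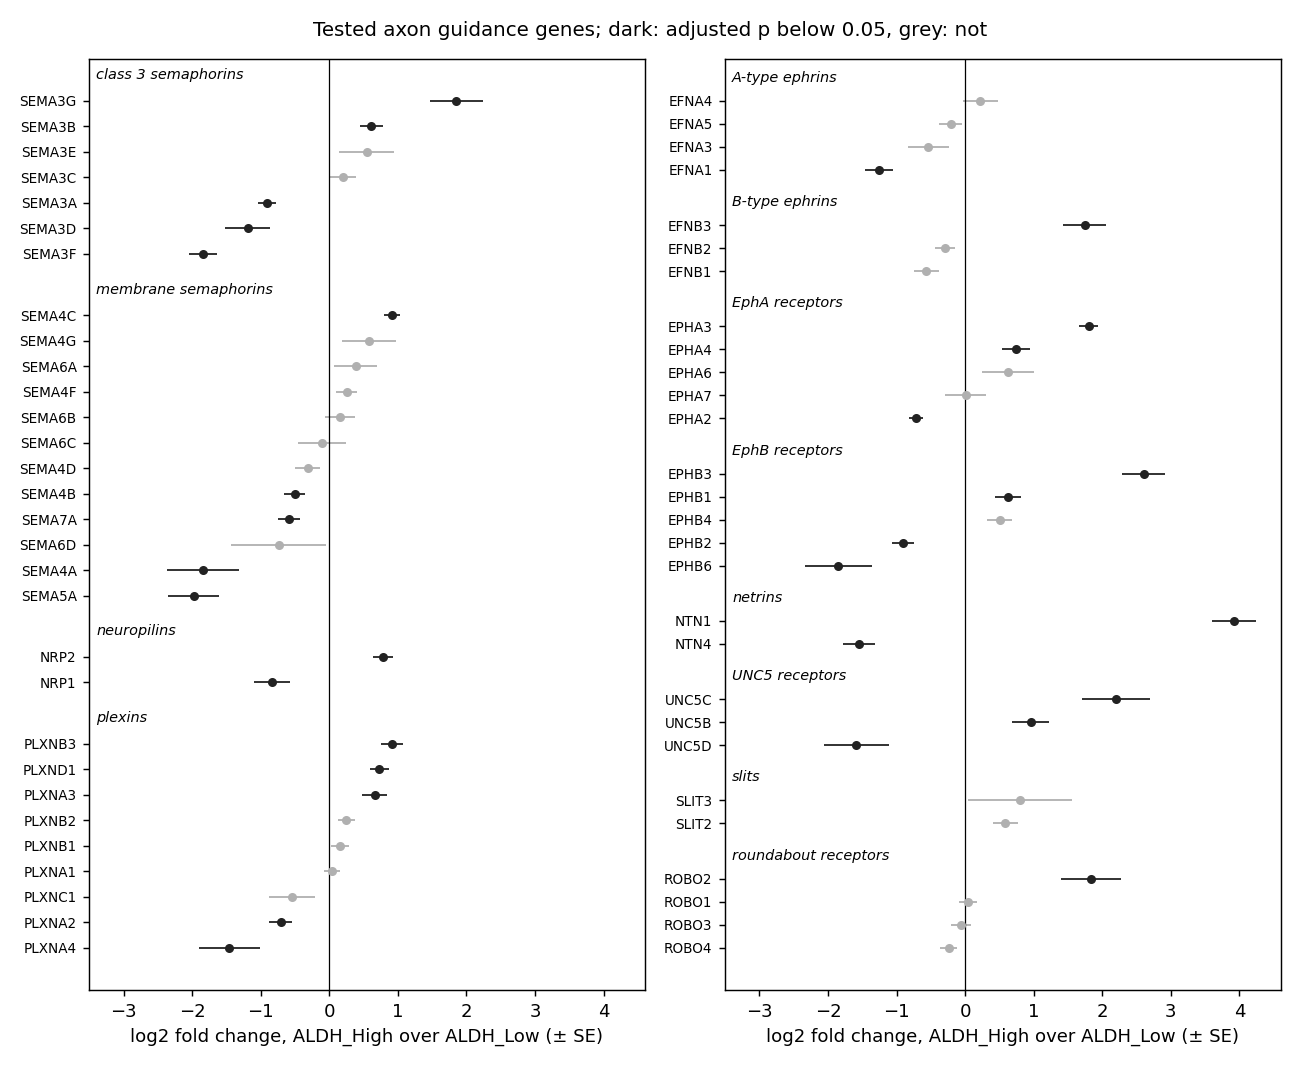
Log2 fold change of ALDH_High over ALDH_Low (x axis, with bars of 1 SE) for the 58 tested members, grouped by family; dark points have an adjusted p below 0.05. NTN1 lies farthest to the right at 3.92 and SEMA5A farthest to the left at -1.98, and most families hold dark points on both sides of 0.

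Class 3 semaphorins are secreted and act through neuropilins and plexins. All 7 members were tested, of which SEMA3B and SEMA3G were higher and SEMA3A, SEMA3D and SEMA3F lower in ALDH_High. Values are given in the order of libraries 1, 2 and 3, as CPM on library sizes scaled with TMM (trimmed mean of M-values) factors, and bracketed changes are log2 ratios of ALDH_High over ALDH_Low with their SE and edgeR adjusted p. SEMA3F (chr3:50155045-50189075, GRCh38), a repellent ligand that binds NRP2, was read at 22.01, 16.1 and 12.3 CPM in ALDH_High and 64.4, 65.6 and 49.8 CPM in ALDH_Low. Its highest ALDH_High library was below its lowest ALDH_Low library (log2 change -1.84, SE 0.21, adjusted p 0.000190). SEMA3A, the ligand first known for collapsing axon tips through NRP1, was at 39.3, 54.4 and 41.9 CPM in ALDH_High and 82.2, 88.4 and 84.3 CPM in ALDH_Low. It too was lower in every ALDH_High library (log2 change -0.91, SE 0.14, adjusted p 0.00115). SEMA3D, a close relative of SEMA3A, had 3.79, 2.46 and 2.96 CPM in ALDH_High and 9.44, 7.73 and 3.74 CPM in ALDH_Low. ALDH_Low library 3 lay within the ALDH_High range, so the groups overlapped (log2 change -1.19, SE 0.33, adjusted p 0.0294).

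SEMA3B (chr3:50267558-50277546), a ligand of both neuropilins and the class 3 semaphorin with the highest mean TPM, moved the other way, with 173, 131 and 131 CPM in ALDH_High and 111, 76.5 and 96.8 CPM in ALDH_Low. All ALDH_High libraries lay above all ALDH_Low libraries, although the spread within each group was wide (log2 change 0.61, SE 0.16, adjusted p 0.0230). SEMA3G, a ligand of NRP2, had 1.97, 2.06 and 4.13 CPM in ALDH_High and 0.960, 0.736 and 0.539 CPM in ALDH_Low. ALDH_High library 3 held the highest of these values, and the groups were apart (log2 change 1.85, SE 0.39, adjusted p 0.00732). SEMA3C (0.20, adjusted p 0.540) and SEMA3E (0.54, adjusted p 0.405), which can bind PLXND1 without a neuropilin, were not called. Calls lost when a library was left out were SEMA3B without ALDH_Low library 2 or 3 (0.48 to 0.63, adjusted p 0.0732 to 0.0901) and SEMA3D without ALDH_High library 2 or 3, or ALDH_Low library 1 or 2 (-1.16 to -0.90, adjusted p 0.0835 to 0.123).

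SEMA3F and SEMA3B are neighbours on chromosome 3, 78.5 kb apart in GENCODE 44, and were called in opposite directions. On chromosome 7, SEMA3A and SEMA3D lie 502.8 kb apart and were both lower, while SEMA3E, 306.6 kb from SEMA3A, was not called (0.54). The exons of SEMA3F share 2.28% of their bases with SEMA3F-AS1 on the opposite strand, a gene with at most 4 counts in any library. Measured as TPM (transcript abundance corrected for gene length), the class 3 semaphorins summed to 138 ± 1.32 TPM in ALDH_High and 143 ± 16.8 TPM in ALDH_Low (SD, n = 3), so their total overlapped between groups while its make-up differed. SEMA3B made up 59.01 ± 5.68% in ALDH_High and 35.98 ± 4.75% in ALDH_Low of that sum, SEMA3A 17.7 ± 3.74% in ALDH_High and 31.1 ± 3.64% in ALDH_Low, and SEMA3F 5.37 ± 1.17% in ALDH_High and 18.02 ± 2.40% in ALDH_Low.

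Both neuropilins were called, in opposite directions. NRP2 (chr2:205681990-205798133), the receptor of SEMA3F and SEMA3G, was read at 113, 86.1 and 85.8 CPM in ALDH_High and 62.2, 53.5 and 49.7 CPM in ALDH_Low (log2 change 0.78, SE 0.14, adjusted p 0.00364). NRP1 (chr10:33177492-33336262), the receptor of SEMA3A and a co-receptor for VEGF, was read at 67.4, 34.9 and 32.1 CPM in ALDH_High and 97.99, 76.4 and 65.3 CPM in ALDH_Low (log2 change -0.84, SE 0.27, adjusted p 0.0491). ALDH_High library 1 had more NRP1 than ALDH_Low library 3, so the groups overlapped, whereas for NRP2 they did not. The call for NRP1 was close to the threshold and was lost without any 1 of ALDH_High libraries 2 and 3 and ALDH_Low libraries 1, 2 and 3 (log2 fold change -0.97 to -0.63, adjusted p 0.0719 to 0.175), as well as with DESeq2 size factors (-0.83, adjusted p 0.0518). Without ALDH_High library 1 the value was -1.24. The ratio of NRP2 to NRP1 in TPM was 1.71, 2.51 and 2.72 in ALDH_High and 0.647, 0.714 and 0.776 in ALDH_Low. NRP2 thus outweighed NRP1 in each ALDH_High library and was the minor neuropilin in each ALDH_Low library, while the sum of both was 49.7 ± 8.96 TPM in ALDH_High and 46.7 ± 9.11 TPM in ALDH_Low. The endothelial markers listed above, which neuropilins accompany in vessels, summed to 3.12 to 3.18 TPM in ALDH_High and 0.736 to 0.950 TPM in ALDH_Low. KDR made up most of the ALDH_High sum and was the only one called. The part of these markers in the neuropilin values was not tested.

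**Figure D2:**
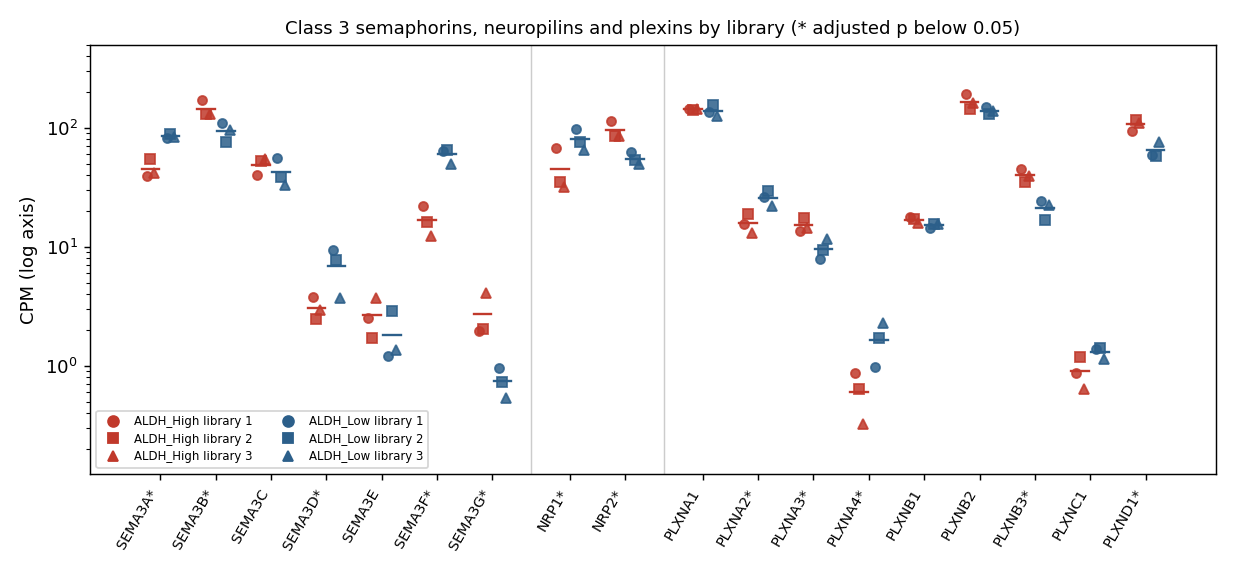
Normalised expression (CPM, log axis) of the tested class 3 semaphorins, neuropilins and plexins in each of the 6 libraries, marked by group and library number. NRP2 and NRP1 cross between the groups, and SEMA3F shows the widest gap between groups among the class 3 semaphorins.

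Plexins, the signalling receptors of semaphorins, were all tested; of 9, PLXNA3, PLXNB3 and PLXND1 were higher and PLXNA2 and PLXNA4 lower in ALDH_High. PLXND1, a receptor of SEMA3E, was at 94.97, 117 and 109.9 CPM in ALDH_High and 59.3, 58.6 and 75.99 CPM in ALDH_Low (log2 change 0.73, SE 0.14, adjusted p 0.00407). It was the most abundant of the called plexins. PLXNB3, described as a receptor of SEMA5A, had 45.2, 35.3 and 39.5 CPM in ALDH_High and 24.1, 16.8 and 22.5 CPM in ALDH_Low (log2 change 0.92, SE 0.16, adjusted p 0.00283). Its exons share 20.4% of their bases with SRPK3 on the same strand, so part of its reads is uncertain, and it lies 678.9 kb from PLXNA3 on chromosome X. PLXNA3, a co-receptor with the neuropilins, had 13.7, 17.5 and 14.5 CPM in ALDH_High and 7.96, 9.37 and 11.5 CPM in ALDH_Low (log2 change 0.66, SE 0.18, adjusted p 0.0273).

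Among the lower plexins, PLXNA2 was read at 15.7, 18.8 and 13.1 CPM in ALDH_High and 26.3, 29.6 and 22.1 CPM in ALDH_Low (log2 change -0.71, SE 0.17, adjusted p 0.0145). PLXNA4 was scarce, with 0.868, 0.637 and 0.322 CPM in ALDH_High and 0.986, 1.71 and 2.30 CPM in ALDH_Low (log2 change -1.46, SE 0.45, adjusted p 0.0438). The groups were apart for each of the 5 called plexins. PLXNB2, a receptor of SEMA4C and the plexin with the highest mean TPM over the 6 libraries, was not called (0.25, adjusted p 0.218), nor were PLXNA1 (0.04, adjusted p 0.863), PLXNC1, the receptor of SEMA7A (-0.54, adjusted p 0.306), and PLXNB1 (0.16, adjusted p 0.469). The calls that depended on single libraries were PLXNA2 without ALDH_High library 3, or ALDH_Low library 1 or 2 (-0.69 to -0.58, adjusted p 0.0508 to 0.0658), PLXNA3 without ALDH_High library 2, or ALDH_Low library 1 or 2 (0.56 to 0.65, adjusted p 0.0855 to 0.105) and PLXNA4 without ALDH_High library 2 or 3, or ALDH_Low library 2 or 3 (-1.48 to -1.13, adjusted p 0.111 to 0.178). The summed level of the plexins was 156 ± 6.67 TPM in ALDH_High and 114 ± 2.38 TPM in ALDH_Low (SD, n = 3), without overlap between the groups.

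Membrane-bound and other semaphorins comprised 13 members, of which 12 were tested, SEMA4C was higher and SEMA4A, SEMA4B, SEMA5A and SEMA7A were lower in ALDH_High. SEMA4C, a ligand of PLXNB2, was read at 64.6, 70.4 and 72.3 CPM in ALDH_High and 33.1, 37.5 and 39.8 CPM in ALDH_Low (log2 change 0.91, SE 0.12, adjusted p 0.000457). Its lowest ALDH_High library lay above its highest ALDH_Low library. SEMA7A, which is held at the membrane by a GPI anchor, had 58.5, 62.3 and 42.3 CPM in ALDH_High and 82.97, 90.5 and 70.5 CPM in ALDH_Low (log2 change -0.58, SE 0.16, adjusted p 0.0281). SEMA5A had 0.552, 1.59 and 0.733 CPM in ALDH_High and 3.86, 3.61 and 4.06 CPM in ALDH_Low (log2 change -1.98, SE 0.37, adjusted p 0.00401). Its groups were far apart, though SEMA5A was at a low level. SEMA5A and its more abundant described receptor PLXNB3 differed in opposite directions.

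SEMA4B had 22.1, 19.6 and 17.6 CPM in ALDH_High and 31.6, 29.4 and 22.9 CPM in ALDH_Low (log2 change -0.50, SE 0.16, adjusted p 0.0454), with the smallest fold change of the called members. SEMA4A, a ligand best known from immune cells and the retina, had 0.197, 0.203 and 0.293 CPM in ALDH_High and 1.45, 0.502 and 0.539 CPM in ALDH_Low (log2 change -1.84, SE 0.52, adjusted p 0.0323) and passed the low-count filter only through the ALDH_Low libraries, so a difference was built into its selection. Calls lost on leaving out a library were SEMA4A without ALDH_High library 1, 2 or 3, or ALDH_Low library 1 (-2.04 to -1.13, adjusted p 0.0660 to 0.173), SEMA4B without ALDH_High library 2 or 3, or ALDH_Low library 1 or 2 (-0.48 to -0.39, adjusted p 0.139 to 0.176) and SEMA7A without ALDH_High library 3, or ALDH_Low library 1 or 2 (-0.55 to -0.41, adjusted p 0.0890 to 0.111). The 7 other tested members of this group had log2 fold changes between -0.74 (SEMA6D) and 0.58 (SEMA4G), and none was called. Among these, SEMA6A, a ligand of PLXNA2 and PLXNA4, had 0.39, adjusted p 0.442. SEMA7A had the highest mean share of the group in ALDH_Low, at 27.5 ± 3.99% in ALDH_High and 41.2 ± 2.17% in ALDH_Low of the summed TPM, and SEMA4C in ALDH_High, at 34.7 ± 3.84% in ALDH_High and 18.6 ± 3.45% in ALDH_Low.

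Ephrins and Eph receptors gave 9 called members, of which 5 were higher and 4 lower in ALDH_High. Among those tested, 1 of 4 A-type ephrins, 1 of 3 B-type ephrins, 3 of 5 EphA and 4 of 5 EphB receptors were called. The share over all genes tested was 20.6%. A-type ephrins are GPI-anchored and prefer EphA receptors, and B-type ephrins span the membrane and prefer EphB receptors. EPHA2 (chr1:16124337-16156069), an Eph receptor common in tumour cells and the most abundant member in TPM, was read at 398, 408 and 369.6 CPM in ALDH_High and 645, 681 and 604 CPM in ALDH_Low (log2 change -0.72, SE 0.10, adjusted p 0.000900). EFNA1 (chr1:155127876-155134899), its main ligand in tumour cells, had 12.7, 7.47 and 9.64 CPM in ALDH_High and 25.9, 20.01 and 24.98 CPM in ALDH_Low (log2 change -1.26, SE 0.20, adjusted p 0.00164). Ligand and receptor were both lower in every ALDH_High library than in any ALDH_Low library. EFNA5 (-0.21, adjusted p 0.431), EFNA3 (-0.54, adjusted p 0.246) and EFNA4 (0.22, adjusted p 0.595) were not called, and 43.9% of the exon bases of EFNA3 and 15.04% of those of EFNA4 are shared with a readthrough gene of the pair.

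EPHA3 (chr3:89107621-89482134), a receptor of EFNA5 in the developing visual system, had 42.2, 40.3 and 50.8 CPM in ALDH_High and 13.8, 12.01 and 12.4 CPM in ALDH_Low (log2 change 1.80, SE 0.14, adjusted p 2.09e-05). EPHA4, which binds ephrins of both types, had 15.9, 17.5 and 21.4 CPM in ALDH_High and 13.6, 8.10 and 10.9 CPM in ALDH_Low (log2 change 0.75, SE 0.21, adjusted p 0.0277). Both were higher in ALDH_High, opposite to EPHA2, and the gap between groups was wide for EPHA3 and narrow for EPHA4. EPHA6 (0.62, adjusted p 0.302) and EPHA7 (0.01, adjusted p 0.991) were not called. EPHA2 made up 86.5 ± 2.06% in ALDH_High and 96.1 ± 0.560% in ALDH_Low of the summed TPM of the EphA receptors and EPHA3 8.14 ± 1.26% in ALDH_High and 1.58 ± 0.148% in ALDH_Low. That sum was 159.9 ± 10.1 TPM in ALDH_High and 229 ± 20.2 TPM in ALDH_Low (SD, n = 3), without overlap between the groups.

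Of the EphB receptors, EPHB1 and EPHB3 were higher and EPHB2 and EPHB6 lower in ALDH_High. EPHB3 (chr3:184561785-184582408), known in the intestinal crypt for placing cells along ephrin-B gradients, had 41.1, 17.9 and 18.8 CPM in ALDH_High and 4.80, 4.05 and 3.88 CPM in ALDH_Low (log2 change 2.60, SE 0.31, adjusted p 0.000299). ALDH_High library 1 held more than the other two ALDH_High libraries, which were themselves far above all ALDH_Low libraries. EPHB2, its partner in the crypt, had 33.1, 25.4 and 22.7 CPM in ALDH_High and 48.9, 57.2 and 46.3 CPM in ALDH_Low (log2 change -0.91, SE 0.16, adjusted p 0.00265). EPHB3 and EPHB2 therefore differed in opposite directions, and their shares of the EphB sum were 18.2 ± 4.01% in ALDH_High and 4.07 ± 0.675% in ALDH_Low for EPHB3 and 13.3 ± 1.04% in ALDH_High and 32.2 ± 2.02% in ALDH_Low for EPHB2.

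EPHB1 had 24.97, 28.9 and 25.7 CPM in ALDH_High and 12.3, 20.01 and 19.3 CPM in ALDH_Low (log2 change 0.63, SE 0.18, adjusted p 0.0372), with the groups apart. EPHB6, whose kinase domain is inactive, had 1.26, 0.261 and 0.440 CPM in ALDH_High and 2.44, 1.94 and 2.48 CPM in ALDH_Low (log2 change -1.85, SE 0.49, adjusted p 0.0244). Both calls were sensitive to the libraries used. Losses among the Eph receptors were EPHA4 without ALDH_High library 2 or 3, or ALDH_Low library 2 or 3 (0.57 to 0.80, adjusted p 0.0586 to 0.0947), EPHB1 without ALDH_High library 2 or 3, or ALDH_Low library 1 or 3 (0.45 to 0.72, adjusted p 0.0632 to 0.114) and EPHB6 without ALDH_High library 2 or 3, or ALDH_Low library 1 or 3 (-1.78 to -1.44, adjusted p 0.0698 to 0.0866). Without ALDH_High library 1, EPHB6 stayed called at -2.68. EPHB1 also missed the threshold with upper-quartile scaling (0.58, adjusted p 0.0504), and 5.92% of its exon bases are shared with a non-coding gene on the same strand. EPHB4, the most abundant EphB receptor and a receptor of EFNB2, was not called (0.50, adjusted p 0.0822).

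EFNB3, a B-type ephrin, is a ligand of EphB receptors and of EPHA4. It had 9.54, 6.11 and 6.27 CPM in ALDH_High and 3.16, 1.57 and 1.73 CPM in ALDH_Low. Its log2 change was 1.74 (SE 0.31, adjusted p 0.00325), and it was higher in every ALDH_High library. Of these receptors, EPHA4, EPHB1 and EPHB3 were higher too, EPHB2 (-0.91) and EPHB6 (-1.85) were lower and EPHB4 (0.50) was not called. EFNB1 (-0.56, adjusted p 0.0571) and EFNB2 (-0.30, adjusted p 0.214) were not called. EFNB2 lies on chromosome 13, where the median log2 fold change over 177 genes was 0.37, and 36.4% of its exon bases overlap a non-coding gene on the opposite strand. EFNB3 made up 15.6 ± 1.57% in ALDH_High and 3.94 ± 1.14% in ALDH_Low of the summed TPM of the B-type ephrins, and EFNA1 made up 32.7 ± 2.95% in ALDH_High and 53.1 ± 2.28% in ALDH_Low of that of the A-type ephrins.

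**Figure D3:**
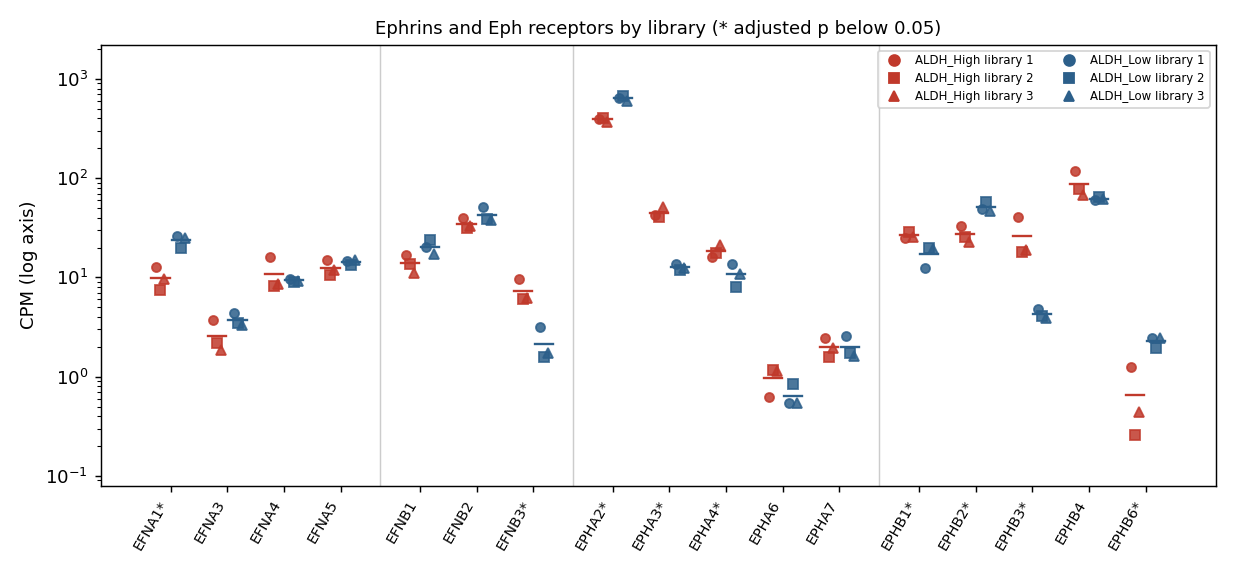
Normalised expression (CPM, log axis) of the tested ephrins and Eph receptors in each of the 6 libraries, marked by group and library number. EPHA2 and EFNA1 lie lower in ALDH_High, and EPHA3, EPHB3 and EFNB3 lie higher.

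The 2 tested netrins were called in opposite directions, and NTN1 had the largest log2 fold change of the tested members. NTN1 (chr17:9021510-9244000), the founding secreted netrin, was read at 20.1, 14.96 and 12.99 CPM in ALDH_High and 1.37, 0.535 and 1.22 CPM in ALDH_Low (log2 change 3.92, SE 0.33, adjusted p 3.31e-05). The lowest ALDH_High library was far above the highest ALDH_Low library. NTN4, a netrin of basement membranes that binds laminin, went the other way, with 3.75, 5.64 and 5.13 CPM in ALDH_High and 18.6, 12.01 and 12.2 CPM in ALDH_Low (log2 change -1.55, SE 0.23, adjusted p 0.00114). The ratio of NTN1 to NTN4 in TPM was 2.62, 1.29 and 1.23 in ALDH_High and 0.0363, 0.0220 and 0.0488 in ALDH_Low. NTN1 made up 60.6 ± 9.29% in ALDH_High and 3.39 ± 1.25% in ALDH_Low of the summed TPM of the netrins, and NTN4 38.3 ± 9.60% in ALDH_High and 95.01 ± 1.05% in ALDH_Low; that sum was 6.92 ± 0.360 TPM in ALDH_High and 7.86 ± 2.13 TPM in ALDH_Low (SD, n = 3), overlapping between the groups.

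The UNC5 receptors bind netrins, repel axons and can trigger cell death when no netrin is bound. UNC5B was at 5.13, 4.43 and 3.34 CPM in ALDH_High and 2.70, 2.17 and 1.73 CPM in ALDH_Low (log2 change 0.96, SE 0.27, adjusted p 0.0305). UNC5C was at 1.10, 0.550 and 0.674 CPM in ALDH_High and 0.207, 0.201 and 0.0719 CPM in ALDH_Low (log2 change 2.20, SE 0.50, adjusted p 0.0113). Both were higher in ALDH_High, though at low levels, and UNC5C passed the low-count filter only through the ALDH_High libraries, so a difference was built into its selection. UNC5D was lower, with 0.513, 0.376 and 0.264 CPM in ALDH_High and 0.882, 1.87 and 0.683 CPM in ALDH_Low (log2 change -1.58, SE 0.48, adjusted p 0.0404). Calls lost on leaving out a library were UNC5B without ALDH_High library 1 or 2, or ALDH_Low library 2 or 3 (0.81 to 0.95, adjusted p 0.0583 to 0.11), UNC5C without ALDH_Low library 3 (1.89, adjusted p 0.0523) and UNC5D without ALDH_High library 2 or 3, or ALDH_Low library 1 or 2 (-1.74 to -1.04, adjusted p 0.0616 to 0.197). The attractive netrin receptors are not members by the rule; of these, named after their values were seen, DCC had 0.828, 0.724 and 0.909 CPM in ALDH_High and 3.71, 2.88 and 3.20 CPM in ALDH_Low (log2 change -1.99, SE 0.27, adjusted p 0.000643) and the more abundant neogenin, NEO1, was not called (0.31, adjusted p 0.296). DCC lies on chromosome 18, where the median log2 fold change over 155 genes was -0.22.

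Of 4 ROBO receptors tested 1 was called, and of 2 slits tested none was, beside 20.6% of all genes tested. ROBO2, a slit receptor, had 1.46, 1.22 and 0.792 CPM in ALDH_High and 0.182, 0.468 and 0.324 CPM in ALDH_Low (log2 change 1.84, SE 0.44, adjusted p 0.0150). It was scarce, at under 2 CPM in every library, and its groups were apart. The call was lost for ROBO2 without ALDH_High library 2, or ALDH_Low library 1 or 3 (1.54 to 1.84, adjusted p 0.0518 to 0.0607). SLIT2, a ligand of ROBO1 and ROBO2 and 92.3% of the summed slit TPM in ALDH_High, missed the threshold (log2 fold change 0.59, adjusted p 0.0519), and SLIT3 was not called (0.80, adjusted p 0.522). ROBO4, known from vessels and the ROBO receptor with the highest mean TPM (-0.24, adjusted p 0.237), ROBO1 (0.05, adjusted p 0.855) and ROBO3 (-0.06, adjusted p 0.827) were not called either.

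**Figure D4:**
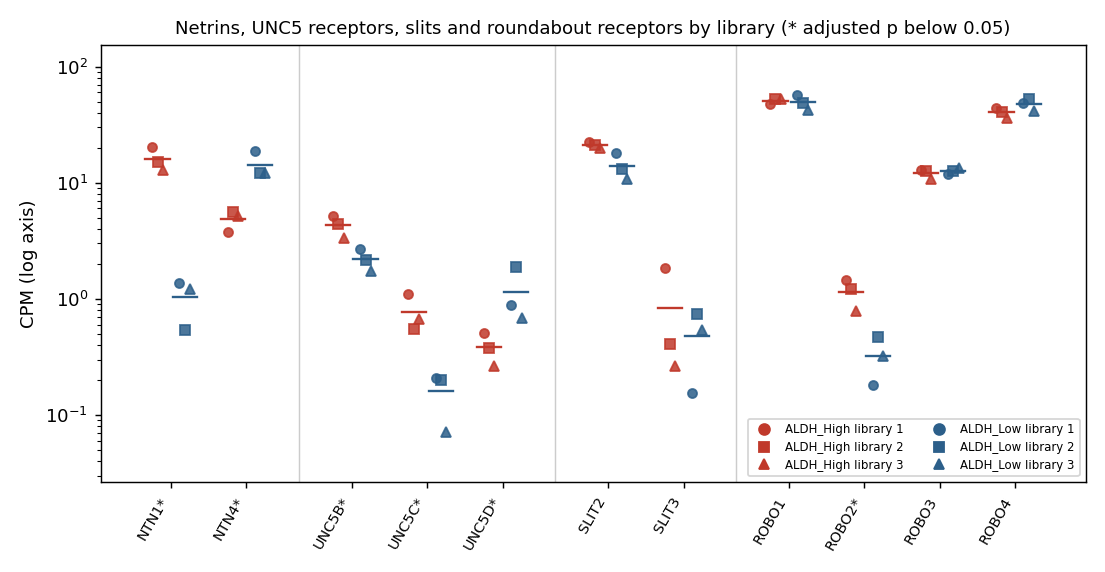
Normalised expression (CPM, log axis) of the tested netrins, UNC5 receptors, slits and ROBO receptors in each of the 6 libraries, marked by group and library number. NTN1 and NTN4 change places between the groups, and the libraries of both groups overlap for ROBO1.

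Too low to be tested were 10 members. Their highest counts in any library were 16 for SLIT1, 12 for EPHA1, 10 for UNC5A, 9 for EFNA2, 8 for EPHA5, 6 for NTN5, 4 for EPHA8, 3 for EPHA10, 2 for NTN3 and 1 for SEMA5B. EPHA10, NTN3 and SEMA5B had 3 counts or fewer in every library, 3 counts being the upper limit that a count of 0 allows. Differences in these 10 genes were not tested in the fit described here. The counts of EPHA5 (0, 1 and 1 in ALDH_High, 8, 4 and 2 in ALDH_Low), EFNA2 (9, 3 and 3 against 2, 0 and 0) and EPHA8 (3, 4 and 1 against 0, 0 and 0), named after their values were seen, did not overlap between the groups. In CPM the groups did not overlap for 37.8% of all genes tested, so nothing is read from these small counts. Another 7 members were tested although at least 1 library lay under the filter level of 0.316 CPM (EPHB6, ROBO2, SEMA4A, SEMA6D, SLIT3, UNC5C and UNC5D).

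Ordered by mean TPM over the 6 libraries, EPHA2 led at 179 TPM (130.2 to 237), followed by SEMA3B at 66.3 TPM (42.5 to 90.3), PLXNB2 at 43.3 TPM (37.1 to 51.6), PLXND1 at 38.000 TPM (25.8 to 53.6) and SEMA3A at 34.3 TPM (19.6 to 46.8), with the lowest and highest library in brackets. EPHA2 stood above all other members in every library, whereas the ranges of PLXNB2, PLXND1 and SEMA3A overlapped and their order is not resolved. The members together summed to 786, 773 and 759 TPM in ALDH_High libraries 1, 2 and 3 and to 856, 819 and 725 TPM in the ALDH_Low libraries, which overlapped. The plot of family make-up gives the shares within 4 of the families.

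**Figure D5:**
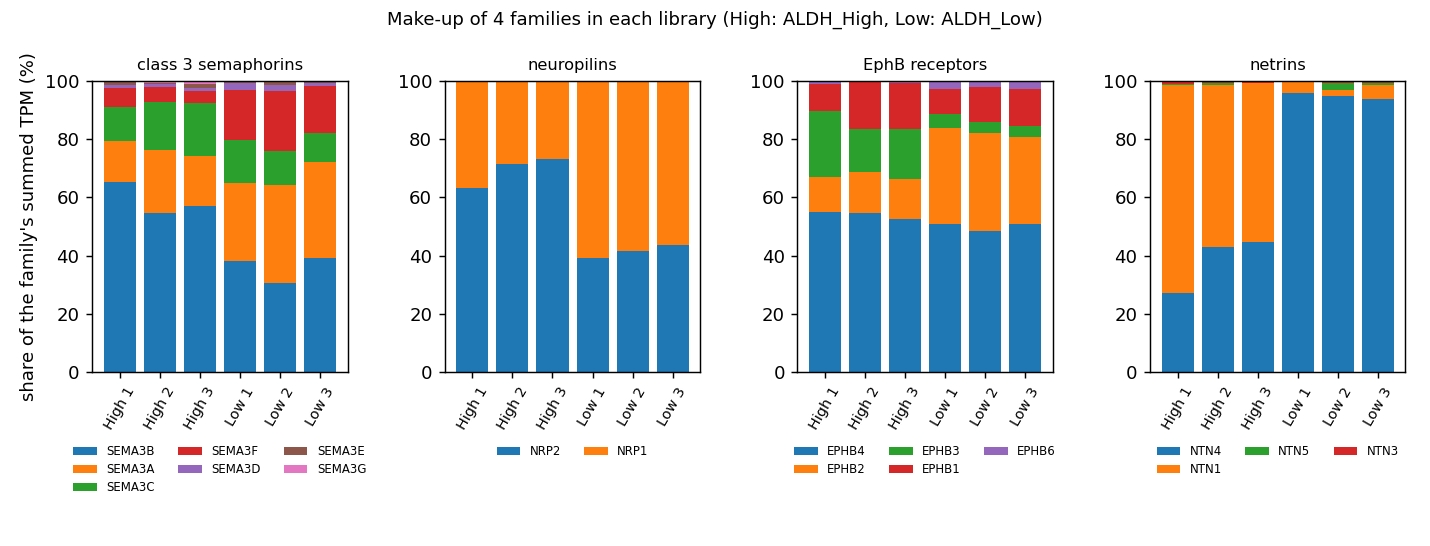
Share of each member in the summed TPM of its family (y axis, percent) in each of the 6 libraries for 4 families, as stacked bars. NRP2 takes 69.3% of the neuropilin sum in ALDH_High and 41.5% in ALDH_Low on average, and NTN1 takes 60.6% and 3.39% of the netrin sum.

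The wider pathway was followed with 119 genes that are not members, comprising other guidance ligands, co-receptors and the cytoplasmic effectors of these receptors. Of 108 tested, 43 (39.8%) were called, 23 higher and 20 lower in ALDH_High, beside the 20.6% of all genes, and their median log2 fold change was 0.14. Their median expression was 38.6 CPM, against 15.03 CPM for all genes tested, so the 2 shares are not at equal expression. The list was also chosen with earlier results of these data known. Among 16 other ligands and modulators 5 were higher and 4 lower, and among 15 other receptors and co-receptors 3 were higher and 5 lower. Of 28 semaphorin and plexin effectors 7 were higher and 7 lower. Of 28 effectors of slit, ROBO, netrin and UNC5 signalling 5 were higher and 4 lower. Of 21 ephrin and Eph effectors 3 were higher and none lower, the smallest share called of the 5 groups; whether it differs from the other groups was not tested.

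The partner genes with the smallest p were, among those higher in ALDH_High, FLT1, FARP1 and FLRT3. FLT1, a VEGF receptor that works beside neuropilins, had 34.4, 43.1 and 46.6 CPM in ALDH_High and 2.13, 0.903 and 2.23 CPM in ALDH_Low (log2 change 4.55, SE 0.29, adjusted p 7.30e-06). FARP1, a guanine nucleotide exchange factor downstream of class A plexins, had 129.6, 107 and 115 CPM in ALDH_High and 24.9, 23.6 and 33.3 CPM in ALDH_Low (log2 change 2.10, SE 0.15, adjusted p 1.63e-05). FLRT3, a membrane protein that binds UNC5 receptors and modulates ROBO1, had 61.2, 47.5 and 47.96 CPM in ALDH_High and 14.2, 9.54 and 10.3 CPM in ALDH_Low (log2 change 2.20, SE 0.18, adjusted p 3.18e-05). FLT1 and FARP1 lie on chromosome 13 (median 0.37) and FLRT3 on chromosome 20 (median 0.28 over 290 genes). The part of a chromosome-wide shift in these results was not tested.

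Among those lower, PLXDC2, a transmembrane protein with a plexin-like domain, had 1.03, 1.16 and 1.82 CPM in ALDH_High and 22.9, 30.1 and 25.8 CPM in ALDH_Low (log2 change -4.28, SE 0.24, adjusted p 4.40e-06). DPYSL3, a collapsin response mediator protein of the semaphorin pathway, had 118, 96.04 and 108 CPM in ALDH_High and 239, 259 and 214 CPM in ALDH_Low (log2 change -1.14, SE 0.12, adjusted p 0.000143). MYO10, the myosin that carries netrin receptors into filopodia, had 30.6, 23.995 and 26.1 CPM in ALDH_High and 67.3, 72.5 and 56.9 CPM in ALDH_Low (log2 change -1.29, SE 0.14, adjusted p 0.000159). The groups were apart for all 6 of these genes, which were picked by their small p. They were also apart for 55.6% of the partner genes tested and 37.8% of all genes tested. FLT1 is also an endothelial gene. The endothelial marker sums given above were higher in ALDH_High, where KDR made up most of the sum. PECAM1, TEK and VWF were not called and CLDN5 was at 0. The part of these markers in the FLT1 result was not tested.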

How the data were processed

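RNA was sequenced from A375 cells sorted into 3 ALDH_High and 3 ALDH_Low libraries, prepared with a stranded mRNA kit per the labels. The submitters' processing notes name FastQC 0.11.3, STAR 2.5.1b, HTSeq 0.6.1, DESeq2 and GRCh38; the annotation release, and whether counting used the strand, are not given in the sources used here. The deposited table holds estimated counts that were rounded to whole numbers, as read from the values: 133 to 177 genes a library had a count of 0 beside a TPM above 0. The authors also deposited TPM, and log2 coefficients of a DESeq2 model, per the file headers, with more groups than were used here; 226 genes with shifted cells were left out of these. The design had assumed raw counts, and the same test was kept. Rows without a gene name numbered 261 and stayed in, since they carry identifiers.

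Low genes were removed by filterByExpr in edgeR, and the rest were scaled with TMM and tested with edgeR 4.0.16 (quasi-likelihood F-test, two-sided, R 4.3.3), with Benjamini-Hochberg adjustment over 17047 genes and a threshold of 0.05. The standard error of a fold change was taken as its absolute log2 value over the root of its F statistic. The fit was tested on simulated data first. Alternatives were other scalings and filters, DESeq2 1.42.0, limma 3.58.1 on log2(TPM + 1) and log2(TPM + 0.1), a replicate block, an adjusted p below 0.01, a minimum absolute log2 fold change of 1, and each library left out. Chi-square per degree of freedom was 13.5 to 56.1 between libraries of a group, so none was taken as deposited again. Depth limits the precision of members under about 1 CPM, and limits from counts cover counting error only, as the reads carry no molecular identifiers. Positions and exon overlaps come from GENCODE 44.

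The members and gene lists were chosen with earlier results of these data known. All members are accounted for: every called member with the value of each library; those not called by name where they are the most abundant of a family or a partner of a called member, and otherwise by range; the 3 partner genes with the smallest p in each direction; chromosome medians beside genes on chromosomes 13, 18 and 20. Other names were picked with their values in view (DCC, NEO1, and the members that a small count required). A marker gene of the white blood cell list is not reported here.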

Additional observations from a re-analysis of the deposited data

How the results depend on the processing

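No called member changed sign under any of the alternatives that gave a value, and 15 of 32 stayed past the threshold in all of them; 16 were called whichever of the 6 libraries was dropped (EFNA1, EFNB3, EPHA2, EPHA3, EPHB2, EPHB3, NRP2, NTN1, NTN4, PLXNB3, PLXND1, SEMA3A, SEMA3F, SEMA3G, SEMA4C and SEMA5A). The count of 32 called members became 15 with limma on log2(TPM + 1) and a mean TPM of at least 1, 16 with log2(TPM + 0.1), 15 with log2(TPM + 1) and no filter, 16 at an adjusted p below 0.01 and 16 with a minimum absolute log2 fold change of 1. Limma with the TPM minimum left 14 members untested, and the added pseudocount shrinks the changes of low genes. Leaving out a library gave 20 (without ALDH_High library 2) to 32, and 21 without ALDH_Low library 2; these fits have fewer samples. Counts of all genes were 2006 with limma on log2(TPM + 1) without a filter, 1930 at 0.01, 1958 at the fold limit and 2488 to 4221 with a library left out; those of the partner genes, 43 as reported, were 22 with limma without a filter, 24 at the fold limit and 30 to 55 with a library left out.

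Of the 26 members not called, 9 changed sign. Upper-quartile scaling gave -0.043 for EPHA7, -0.012 for PLXNA1 and -0.0030 for ROBO1. With single libraries left out, the log2 fold change ran from -0.13 to 0.41 for EFNA4, -0.14 to 0.26 for EPHA7, -0.036 to 0.13 for PLXNA1, -0.057 to 0.17 for ROBO1, -0.092 to 0.033 for ROBO3, -0.078 to 0.36 for SEMA6B, -0.55 to 0.17 for SEMA6C, -1.14 to 0.35 for SEMA6D and -0.46 to 1.28 for SLIT3; the cause was not tested. EFNA3, EFNB1, EPHB4 and SLIT2 passed the threshold in at least 1 alternative. With the replicate number as a block 33 members were called, 31 of them shared, and PLXNA4 was lost (-1.44, adjusted p 0.0650); same-numbered libraries correlated at 0.15, 0.076 and 0.11 after removal of group means, each best with its own number, which is a hint from the data and did not reach the limit of 0.1 for every pair. Requiring at least 10 counts in every library left EPHB6, ROBO2, SEMA4A, SEMA6D, SLIT3, UNC5C and UNC5D untested, and SEMA6D was untested without ALDH_High library 2.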

Other observations

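In the 58 members with a promoter in the RefSeq table, 4 held the E-box, 22 an AP-2, 1 an AP-1, 6 a SOX and 5 a TEAD match, beside 10.1%, 31.9%, 4.8%, 10.8% and 10.95% of the 10800 promoters of tested protein-coding genes. Median GC content was 66.2% in the members and 65.0% in the latter.

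A symbol stem of the members is shared by 5 non-coding genes (SEMA3B-AS1, SEMA3F-AS1, SEMA5A-AS1, SEMA6A-AS1 and SEMA6A-AS2). SEMA6A-AS1 had 3, 21 and 26 counts in ALDH_High libraries 1, 2 and 3 and 15, 14 and 19 in the ALDH_Low libraries, and the others had at most 4 in any library. ALDH_High library 1, which the second principal component sets apart, held the lowest of these SEMA6A-AS1 counts. It also held the highest EPHB3 and NRP1 values of its group.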
